A study of Mus musculus with 45 samples.

Results

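Wild-type regulatory T cells (Tregs) from lymph nodes were compared with effector T cells from tumours, to ask which differences between the cell types are present in Tregs that were not taken from a tumour. The 10 libraries, 5 of lymph node Tregs and 5 of effector T cells, were chosen by their titles out of 45 in the series. The mice carried B16 melanoma, a transplantable mouse skin tumour, and both groups have the genotype label WT. The Tregs came from non-draining lymph nodes (nodes that do not drain the tumour) and the effector T cells from the tumour itself, so tissue and cell type change together here and cannot be told apart. A further group, wild-type Tregs from tumours (5 libraries), shared the model and is set beside the others where it helps. Per the labels' protocols, 5000 Tregs were sorted per library, singly (3 libraries) or doubly (2), and their cDNA was amplified with a SMARTer kit for very small inputs. Nextera XT libraries were sequenced on a NextSeq 500. The libraries of each group are numbered 2, 3, 4, ds1 and ds2, and ds was read as double sorting. The sources used here do not give the number of effector T cells sorted, the markers or reporters of the sorts, or the age and sex of the mice.

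Tregs are CD4 T cells that restrain immune responses and depend on the transcription factor Foxp3. They take up interleukin-2 (IL-2) through a high-affinity receptor, block co-stimulation through CTLA-4 and make inhibitory mediators. Within lymph nodes, resting Tregs circulate with naive T cells, guided by the same homing receptors, while a part of them is activated and divides. Effector T cells are T cells that have met antigen, and in a tumour they are known for making interferon gamma and granzymes.

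Total counts ran from 5408375 to 17544940 in lymph node Tregs and from 2945638 to 31329203 in effector T cells. Levels are CPM, counts scaled to library size by TMM normalization, listed in the order 2, 3, 4, ds1, ds2. Genes were tested with edgeR's quasi-likelihood test, with the replicate number as a block, and called at a Benjamini-Hochberg adjusted p below 0.05 over 11498 genes. Fold changes are lymph node Tregs over effector T cells on a log2 scale, given with their standard error (SE). The labels do not say whether the libraries of a group are different mice. The p-values thus measure spread among these libraries alone, which may be technical in part. In such bulk samples, fewer cells of a kind and less RNA per cell cannot be told apart. Library 3 stood apart in both groups by Y-linked reads (3363 in lymph node Tregs and 4408 in effector T cells, against 0 in the other libraries). Xist, an RNA of female cells, had 33 counts in lymph node Treg library 3 and 0 in effector T cell library 3. The other libraries of these groups had 46 to 2938. Library 3 thus held cells of male mice, and whether the others differ in mice is not known. Library ds2 was the shallowest of each group with the highest share of the nuclear RNA Malat1 (1.81% in lymph node Tregs and 2.85% in effector T cells, against at most 0.793% in the other 8). The counts called were therefore also computed without the libraries numbered 3 and without the ds2 libraries.

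Lymph node Tregs differed from effector T cells in 174 genes, of which 147 were higher (1.28% of genes tested) and 27 lower (0.235%). Of the 147 higher genes 140 were higher in all 5 replicate numbers, and all 27 lower genes were lower in all 5. The genes called higher had a median log2 fold change of 4.71 and those called lower one of -1.63, while the median of all genes tested was -0.0028. In 50 of the 147 the effector T cells averaged under 1 CPM. The fitted fold change of such a gene depends on the prior count and gives an order of size only. The values of the 5 libraries of a group did not overlap with those of the other in 113 of the 147 and 18 of the 27, and over all genes tested in 219 higher and 122 lower. At an unadjusted p below 0.05 stood 749 genes higher and 375 lower. Tumour Tregs were in the fit and shared in its estimate of the spread, and with the 10 compared libraries alone 58 genes were higher and 21 lower. That fit kept the calls of 44 of the 61 called genes named here that it tested. Without the ds2 libraries 76 genes were higher and 8 lower, and without those numbered 3 the counts were 87 and 16. Leaving out lymph node Treg library ds2 alone gave 92 higher and 13 lower, and leaving out effector T cell library 4 gave 97 and 16. The lower count was also 16 without lymph node Treg library 4, 17 without effector T cell library 2 and 45 without tumour Treg library ds1.

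**Figure D1:**
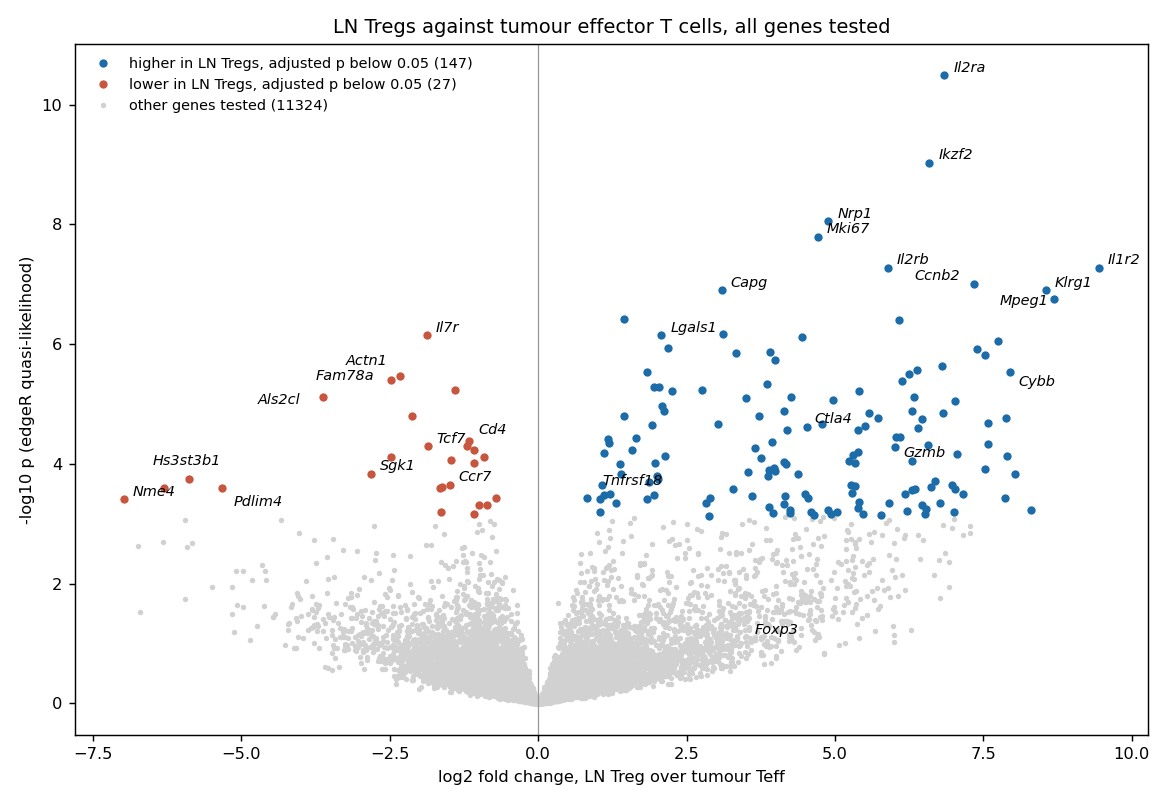
Fold change and p of all 11498 genes tested. The horizontal axis is the log2 fold change of lymph node Tregs over effector T cells, the vertical axis -log10 of edgeR's unadjusted p, and each point is a gene, blue for the 147 called higher and red for the 27 called lower. Il2ra and Ikzf2 lie highest, and Foxp3 lies among the genes that were not called.

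Genes that mark Tregs were higher in lymph node Tregs, led by the chain of the IL-2 receptor that gives it high affinity and by the transcription factor Helios. Of 30 tested genes of a list of Treg identity genes, 20 were called higher and 0 lower, and all 30 had a fold change above 0, with a median of 4.71. Il2ra, the IL-2 receptor alpha chain CD25 (chromosome 2, 11642807 to 11693193, plus strand in mm10), had 435, 650.1, 701, 557 and 602 CPM in lymph node Tregs and 8.97, 2.601, 17.3, 1.86 and 3.29 CPM in effector T cells. Each lymph node library was higher than each effector library by more than 20-fold. Il2ra had a log2 fold change of 6.84 (SE 0.46, adjusted p = 3.7e-07). Ikzf2, which encodes Helios (chromosome 1, 69531214 to 69687245, minus strand), had 855, 1109, 897, 1169 and 938 CPM in lymph node Tregs and 22.2, 22.7, 14.5, 1.76 and 2.69 CPM in effector T cells. The groups did not overlap. Ikzf2 had a log2 fold change of 6.59 (SE 0.55, adjusted p = 5.4e-06). Nrp1, the semaphorin receptor neuropilin-1 that marks many thymus-derived Tregs (chromosome 8, 128358604 to 128503363, plus strand), had 261, 393, 319.8, 373 and 412 CPM in lymph node Tregs and 16.4, 10.8, 19.1, 2.44 and 17.3 CPM in effector T cells. These groups too lay apart. Nrp1 had a log2 fold change of 4.89 (SE 0.47, adjusted p = 3.4e-05). Ctla4, the CTLA-4 gene whose product competes for CD80 and CD86 (chromosome 1, 60887000 to 60915832, plus strand), had 312, 801, 307, 623 and 315 CPM in lymph node Tregs and 16.7, 4.88, 0.361, 21.5 and 26.01 CPM in effector T cells, again with no overlap. Ctla4 had a log2 fold change of 5.39 (SE 0.84, adjusted p = 0.00489). Calls of these 4 genes held in all 15 fits that left out 1 library, where the log2 fold change was 6.56 to 7.23 for Il2ra, 6.14 to 6.93 for Ikzf2, 4.50 to 5.19 for Nrp1 and 4.88 to 6.15 for Ctla4.

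Foxp3 itself did not pass the test. This defining gene (chromosome X, 7573644 to 7595245, plus strand) had 5.37, 0.547, 0, 0.914 and 57.7 CPM in lymph node Tregs and 0.0312, 0.0813, 0.181, 1.46 and 0 CPM in effector T cells. Foxp3 had a log2 fold change of 3.49 (SE 1.87, adjusted p = 0.585). The value of the lymph node group rests on library ds2, and libraries 3, 4 and ds1 of Tregs lay within the range of the effector T cells. Exons of Foxp3 overlap those of Ccdc22, Flicr, Gm36995 and Ppp1r3f, and how reads shared between genes were counted is not known. The part of this overlap in the low counts of Foxp3 was not tested. Tumour Tregs had 12.2, 17.96, 5.903, 20.3 and 42.5 CPM and were called against effector T cells (log2 fold change 5.85, adjusted p = 0.0334). Of the markers of the label, Il2ra, Ikzf2, Nrp1 and Ctla4 were thus high in all 5 lymph node libraries, while Foxp3 was under 1 CPM in 3 of the 5. Gpr83, an orphan receptor of resting Tregs, had 89.01, 15.7, 76.8, 110.5 and 81.9 CPM in lymph node Tregs and 2.19, 14.1, 16.5, 1.07 and 17.3 CPM in effector T cells, and was not called. Gpr83 had a log2 fold change of 3.10 (SE 1.30, adjusted p = 0.416).

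**Figure D2:**
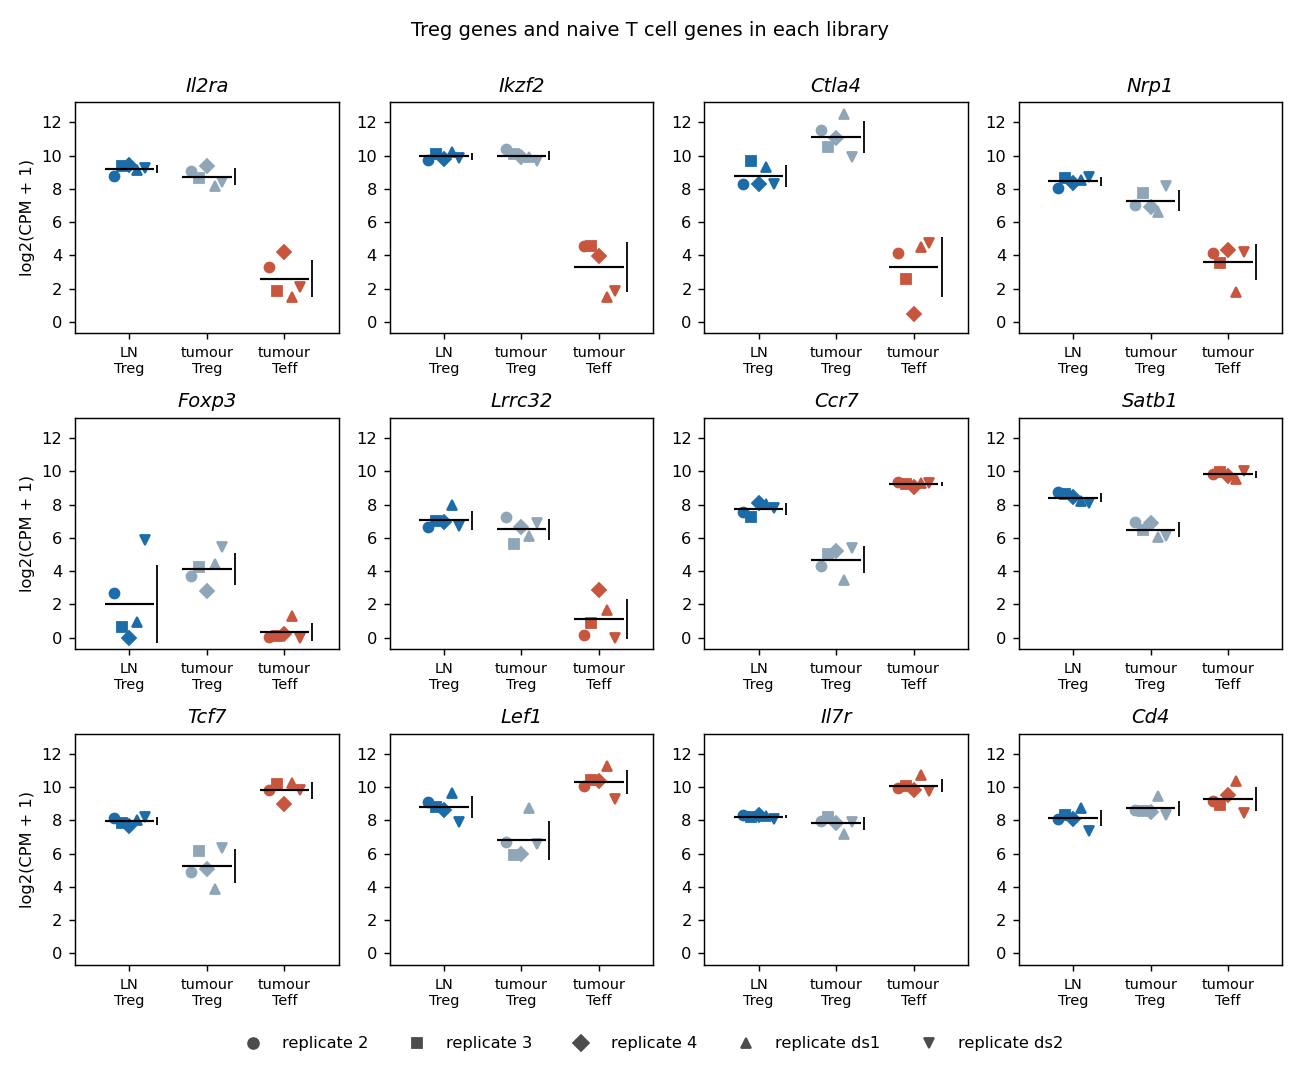
Levels of 12 genes in each library, as log2(CPM + 1), for lymph node Tregs, tumour Tregs and effector T cells. Points are libraries, with the replicate as the shape, the long bar is the mean and the thin upright bar is 1 SD on each side (n = 5). Il2ra, Ikzf2, Nrp1 and Lrrc32 of both Treg groups lie above the effector T cells, and Ccr7, Tcf7 and Il7r of both lie below them.

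Other surface and nuclear Treg genes showed the same separation. Lrrc32, which encodes GARP, the surface anchor of latent TGF-beta, averaged 141 ± 64.5 CPM in lymph node Tregs and 1.89 ± 2.67 CPM in effector T cells (SD, n = 5 each). Lrrc32 had a log2 fold change of 6.80 (SE 0.98, adjusted p = 0.00110). Ikzf4, which encodes Eos, a relative of Helios, averaged 56.4 ± 23.7 CPM in lymph node Tregs and 1.896 ± 1.93 CPM in effector T cells. Ikzf4 had a log2 fold change of 5.41 (SE 0.84, adjusted p = 0.00187). Folr4, the folate receptor family member also called Izumo1r, averaged 491 ± 227 CPM in lymph node Tregs and 98.4 ± 17.7 CPM in effector T cells. Folr4 had a log2 fold change of 2.19 (SE 0.30, adjusted p = 0.000728). Capg, an actin-capping protein, averaged 413 ± 246 CPM in lymph node Tregs and 45.4 ± 24.004 CPM in effector T cells. Capg had a log2 fold change of 3.09 (SE 0.36, adjusted p = 0.000161). Rgs1, which dampens chemokine receptor signals, averaged 469.7 ± 102 CPM in lymph node Tregs and 11.1 ± 11.3 CPM in effector T cells. Rgs1 had a log2 fold change of 6.08 (SE 0.77, adjusted p = 0.000373). Ikzf4, Folr4, Capg and Rgs1 were picked for naming after their values were seen. Entpd1, the ectoenzyme CD39, and Il1rl1, the IL-33 receptor, had log2 fold changes of 4.27 and 4.63 without being called (adjusted p = 0.111 and 0.0962), and were also picked after their values were seen. The count of Treg identity genes called ran from 17 to 22 when 1 library was left out. It was 16 without the ds2 libraries, 19 without those numbered 3, and 15 without lymph node Treg libraries 2, 3 and 4, whose B cell marker sums were the highest of the group.

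Among suppressive mediators, 7 of 16 tested genes were called higher in lymph node Tregs and 0 lower (median log2 fold change 3.91), and 4 of those 7 (Ctla4, Lrrc32, Nt5e and Tigit) also stand in the lists of identity or checkpoint genes. Ebi3, a subunit of the cytokines IL-27 and IL-35, had 14.2, 52.7, 27.3, 24.8 and 35.97 CPM in lymph node Tregs and 0.0625, 2.11, 0.181, 0.391 and 0 CPM in effector T cells. Ebi3 had a log2 fold change of 6.39 (SE 0.93, adjusted p = 0.00124). Lgals1, the secreted lectin galectin-1, had 351, 891, 625, 465 and 261 CPM in lymph node Tregs and 125, 80.3, 172, 155 and 70.9 CPM in effector T cells. Lgals1 had a log2 fold change of 2.08 (SE 0.27, adjusted p = 0.000547). All 5 lymph node libraries lay above all 5 effector libraries for both genes. Tigit, an inhibitory receptor that binds CD155, had 19.97, 9.23, 9.79, 12.04 and 54.1 CPM in lymph node Tregs and 0.281, 0.0813, 0, 0.488 and 0 CPM in effector T cells. Tigit had a log2 fold change of 6.30 (SE 1.04, adjusted p = 0.00318). Il10, the inhibitory cytokine IL-10, stood at 0.457 to 18.5 CPM in lymph node Tregs and 0 to 1.49 CPM in effector T cells and was not called (adjusted p = 0.461). Tgfb1 was at 0.457 to 18.6 CPM in lymph node Tregs and 0 to 23.02 CPM in effector T cells (adjusted p = 0.997). The count of 7 was 5 without the ds2 libraries, 7 without those numbered 3 and 4 without lymph node Treg libraries 2, 3 and 4.

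Of 15 transcription factors of effector Tregs, 3 were called higher and 0 lower (median log2 fold change 1.01). Maf, a factor of IL-10 expression, had 219.9, 403, 258, 563 and 80.6 CPM in lymph node Tregs and 15.4, 5.12, 57.9, 10.6 and 16.1 CPM in effector T cells, with no overlap. Maf had a log2 fold change of 3.86 (SE 0.59, adjusted p = 0.00166). Bhlhe40 had 17.4, 82.3, 17.8, 19.1 and 14.7 CPM in lymph node Tregs and 0, 1.46, 0, 0.879 and 1.49 CPM in effector T cells, where library 3 of the lymph node group stood above the other 4. Bhlhe40 had a log2 fold change of 5.51 (SE 0.96, adjusted p = 0.00431). Gata3, the factor of type 2 helper cells that is also active in tissue Tregs, averaged 164 ± 42.5 CPM in lymph node Tregs and 51.4 ± 31.9 CPM in effector T cells. Gata3 had a log2 fold change of 1.83 (SE 0.42, adjusted p = 0.0311). The call of Gata3 was lost without lymph node Treg libraries 2, 3, ds1 or ds2 or tumour Treg libraries 3, 4 or ds2 or effector T cell libraries 2, 3 or ds2 (adjusted p from 0.0519 to 0.126).

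Genes of naive and memory T cells were lower in lymph node Tregs than in effector T cells. Of 28 tested members of that list 7 were called lower and 0 higher, 24 of the 28 had a fold change below 0, and the median was -1.24. Tcf7, the gene of TCF-1, which keeps T cells in naive and memory states (chromosome 11, 52252371 to 52283014, minus strand), had 288, 229, 199, 265 and 289 CPM in lymph node Tregs and 915, 1187, 497, 1228 and 902 CPM in effector T cells. Tcf7 had a log2 fold change of -1.86 (SE 0.35, adjusted p = 0.00772). Il7r, the survival receptor CD127 that Tregs are known to carry at low levels (chromosome 15, 9505788 to 9530176, minus strand), had 314, 298, 325, 303 and 267 CPM in lymph node Tregs and 1004, 1093, 913, 1696 and 861 CPM in effector T cells. Il7r had a log2 fold change of -1.87 (SE 0.25, adjusted p = 0.000547). Both genes separated the groups completely, and both calls held in all 15 leave-one-out fits. Lef1, a partner of TCF-1, had 557, 455, 392, 819 and 237 CPM in lymph node Tregs and 1095, 1381, 1314, 2526 and 622 CPM in effector T cells. Lef1 had a log2 fold change of -1.47 (SE 0.29, adjusted p = 0.0110). Here the groups overlapped through library ds1 of the lymph node Tregs and ds2 of the effector T cells, and the call was lost without effector T cell libraries 3 or 4 (adjusted p from 0.0573 to 0.0589). Satb1, a chromatin organizer that is known to be held down in Tregs, averaged 347 ± 61.4 CPM in lymph node Tregs and 905 ± 121 CPM in effector T cells. Satb1 had a log2 fold change of -1.40 (SE 0.22, adjusted p = 0.00186). Bach2, a repressor that keeps T cells quiescent, was not called (46.8 to 201 CPM in lymph node Tregs and 144 to 268 CPM in effector T cells, adjusted p = 0.697). The remaining called members were Pdlim4, Actn1 and Als2cl. The count of 7 was 5 to 8 with 1 library left out, 5 without the ds2 libraries, 5 without those numbered 3 and 3 without lymph node Treg libraries 2, 3 and 4.

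Homing receptors went both ways, with 3 of 25 called higher and 1 lower (median log2 fold change 1.36). Ccr7, which directs T cells to lymph nodes, had 189, 152, 273, 266 and 217 CPM in lymph node Tregs and 659, 599, 531, 630.3 and 633 CPM in effector T cells. Ccr7 had a log2 fold change of -1.49 (SE 0.32, adjusted p = 0.0223). The tumour-derived effector libraries were all above the lymph node libraries, and the call was lost without lymph node Treg libraries 2, 3, 4 or ds2 or effector T cell libraries 2, 3 or ds1 (adjusted p from 0.0622 to 0.110). Itgae, the integrin chain CD103 that binds E-cadherin, had 70.7, 84.5, 146, 130.5 and 136 CPM in lymph node Tregs and 7.22, 0.6503, 8.49, 3.32 and 2.39 CPM in effector T cells. Itgae had a log2 fold change of 4.97 (SE 0.79, adjusted p = 0.00225). Itgb1, the integrin beta 1 chain, averaged 389 ± 117 CPM in lymph node Tregs and 101 ± 49.8 CPM in effector T cells. Itgb1 had a log2 fold change of 2.11 (SE 0.35, adjusted p = 0.00318). Ccr6, the receptor for CCL20, had 4.94, 54.5, 51.1, 61.1 and 66.7 CPM in lymph node Tregs and 2.19, 0.0813, 2.08, 0.879 and 3.59 CPM in effector T cells. Ccr6 had a log2 fold change of 4.88 (SE 1.16, adjusted p = 0.0426). The call of Ccr6 was lost without lymph node Treg libraries 3, 4, ds1 or ds2 or tumour Treg libraries 2 or ds2 or effector T cell libraries 2, 3, 4, ds1 or ds2 (adjusted p from 0.0624 to 0.205). All 3 genes separated the groups, Ccr6 narrowly through library 2 of the lymph node Tregs. The counts of 3 and 1 became 2 and 0 without the ds2 libraries, 3 and 0 without those numbered 3, and 2 and 0 without lymph node Treg libraries 2, 3 and 4.

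The libraries labelled effector T cells held few transcripts of effector function. Ifng, which encodes interferon gamma, had 2.15, 7.45, 3.94, 0 and 5.27 CPM in lymph node Tregs, 153, 82.1, 136, 134 and 20.1 CPM in tumour Tregs and 9.25, 0, 9.398, 0 and 8.97 CPM in effector T cells, with no call between lymph node Tregs and effector T cells. Ifng had a log2 fold change of -0.28 (SE 1.38, adjusted p = 0.980). Gzmb, which encodes granzyme B of cytotoxic granules, had 12.5, 24.9, 23.02, 0.305 and 8.53 CPM in lymph node Tregs, 1739, 807, 1808, 757 and 810.4 CPM in tumour Tregs and 0, 0, 0.181, 0.391 and 0.897 CPM in effector T cells. Lymph node Tregs were above effector T cells in 4 of 5 replicate numbers. Gzmb had a log2 fold change of 6.03 (SE 1.05, adjusted p = 0.00607), and the call was lost without lymph node Treg libraries 2 or 4 or effector T cell library 4 (adjusted p from 0.0554 to 0.0608). Havcr2, the inhibitory receptor TIM-3, stood at 0 to 0.684 CPM in effector T cells, and Lag3, an inhibitory receptor for MHC class II, at 0 to 1.07 CPM. With Ccr7, Tcf7 and Lef1 high, these libraries went against the markers of their label. Cd4 was high at 341 to 1324 CPM and Cd8a low at 0 to 16.8 CPM. The cause was not tested.

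Of 22 cytotoxic and chemokine genes tested, 5 were called higher in lymph node Tregs and 0 lower (median log2 fold change 0.83, or 0.95 with genes near 0 counts set at their bound). Ccl5, a chemokine of activated T cells, had 108, 256, 204, 37.5 and 25.3 CPM in lymph node Tregs and 17.03, 13.6, 38.7, 3.71 and 2.99 CPM in effector T cells. Ccl5 had a log2 fold change of 3.11 (SE 0.41, adjusted p = 0.000547). Nkg7, a cytotoxic granule protein, had 133, 283, 127, 70.7 and 91.2 CPM in lymph node Tregs and 32.7, 33.003, 28.6, 40.6 and 14.4 CPM in effector T cells. Nkg7 had a log2 fold change of 2.09 (SE 0.34, adjusted p = 0.00280). Cst7, the protease inhibitor cystatin F, averaged 199 ± 75.3 CPM in lymph node Tregs and 54.4 ± 28.7 CPM in effector T cells. Cst7 had a log2 fold change of 1.96 (SE 0.30, adjusted p = 0.00174). Ccl4, an inflammatory chemokine, held 446 counts in lymph node Tregs and 2 in effector T cells, a ratio of 328 after scaling (95% exact interval 90.3 to 2718, which covers counting error only). Prf1, the pore-forming protein perforin, stood at 0 to 41.6 CPM in lymph node Tregs and 0.293 to 14.7 CPM in effector T cells (adjusted p = 0.969). Nkg7 and Ccl4 did not overlap between the groups, while Ccl5 and Cst7 did and were higher in all 5 replicate numbers. The calls of these 4 held in all 15 leave-one-out fits. The count of 5 was 5 without the ds2 libraries, 5 without those numbered 3 and 3 without lymph node Treg libraries 2, 3 and 4. The NK marker Tyrobp had 10.5, 32.5, 62.8, 0.457 and 0.6202 CPM in lymph node Tregs and 0 to 2.69 CPM in effector T cells. Cd8b1, a CD8 chain, had 124, 37.9, 63.4, 114 and 24.96 CPM in lymph node Tregs and 1.66 to 75.1 CPM in effector T cells. Cd8a had 80.1, 0.547, 9.99, 0 and 9.77 CPM in lymph node Tregs and 0 to 16.8 CPM in effector T cells. None of these was called, and the part of NK and CD8 T cells in the cytotoxic values was not tested.

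Checkpoint and co-stimulatory receptors were higher in lymph node Tregs in 7 of 21 tested genes and lower in 0 (median log2 fold change 2.10). Icos, a CD28 relative, had 400.3, 498, 335, 335 and 542 CPM in lymph node Tregs and 122, 113, 153, 15.7 and 111 CPM in effector T cells. Icos had a log2 fold change of 2.25 (SE 0.35, adjusted p = 0.00187). Icos was lowest in library ds1 of the effector T cells. Among the 7 were 3 members of the tumour necrosis factor receptor family. Tnfrsf4, the receptor OX40, had 550.1, 652, 475, 545 and 693 CPM in lymph node Tregs and 49.2, 44.1, 38.04, 0.293 and 29.002 CPM in effector T cells. Tnfrsf4 had a log2 fold change of 4.79 (SE 0.75, adjusted p = 0.00423), and lost its call without effector T cell library ds2 (adjusted p = 0.0596). Tnfrsf9, the receptor 4-1BB, had 69.1, 242, 71.4, 192 and 124 CPM in lymph node Tregs and 9.62, 31.1, 16.8, 53.02 and 5.98 CPM in effector T cells. Tnfrsf9 had a log2 fold change of 2.76 (SE 0.43, adjusted p = 0.00186). Tnfrsf18, the receptor GITR, had 362, 360.1, 288, 447 and 564 CPM in lymph node Tregs and 145, 249.8, 75.001, 216 and 115 CPM in effector T cells, the smallest separation of the family members called. Tnfrsf18 had a log2 fold change of 1.39 (SE 0.28, adjusted p = 0.0118). The call of Tnfrsf18 was lost without lymph node Treg library ds2 or effector T cell libraries 4 or ds2 (adjusted p from 0.0569 to 0.0857). Pdcd1, the inhibitory receptor PD-1, averaged 82.8 ± 63.4 CPM in lymph node Tregs and 11.3 ± 9.63 CPM in effector T cells. Pdcd1 had a log2 fold change of 2.83 (SE 0.65, adjusted p = 0.0353) and lost its call without lymph node Treg libraries 2, 3, 4, ds1 or ds2 or tumour Treg libraries 2, 4 or ds2 or effector T cell libraries 2, 3 or 4 (adjusted p from 0.0505 to 0.162). Cd44, an adhesion molecule raised on activated T cells, was not called (161 to 399 CPM in lymph node Tregs and 42.8 to 436 CPM in effector T cells, adjusted p = 0.375). Cd40lg, the helper ligand CD40L, stood at -2.45 on the log2 scale without a call (adjusted p = 0.127). The count of 7 was 4 without the ds2 libraries, 7 without those numbered 3 and 4 without lymph node Treg libraries 2, 3 and 4.

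Receptor chains and feedback genes of IL-2 were higher in lymph node Tregs, with 5 of 16 genes of the IL-2 and STAT5 list called higher and 1 lower (median log2 fold change 0.47). Il2ra and Il2rb, which are among the 5, also stand in the list of Treg identity genes. Il2rb, the beta chain that passes on the signal, had 82.4, 125, 125, 124 and 155 CPM in lymph node Tregs and 0.906, 0.406, 8.95, 1.07 and 3.89 CPM in effector T cells. Il2rb had a log2 fold change of 5.89 (SE 0.64, adjusted p = 0.000103). Cish, a STAT5-induced inhibitor, had 269, 277, 168, 336 and 186 CPM in lymph node Tregs and 40.9, 7.72, 34.2, 1.17 and 24.5 CPM in effector T cells. Cish had a log2 fold change of 3.71 (SE 0.63, adjusted p = 0.00350). Socs2, a further STAT5 feedback gene, averaged 67.5 ± 45.9 CPM in lymph node Tregs and 2.097 ± 3.58 CPM in effector T cells. Socs2 had a log2 fold change of 6.02 (SE 1.12, adjusted p = 0.00778). None of these 3 overlapped between the groups. Il2, the cytokine itself, was near 0 in both groups (0 to 0.606 CPM in lymph node Tregs and 0.219 to 8.13 CPM in effector T cells). Jak1, the kinase of the receptor, was called lower by a small margin. Jak1 had a log2 fold change of -0.72 (SE 0.16, adjusted p = 0.0303), and the call was lost without lymph node Treg libraries 2, 4, ds1 or ds2 or effector T cell libraries 3, 4 or ds1 (adjusted p from 0.0559 to 0.124) and with size factors in place of TMM. The count of 5 was 3 without the ds2 libraries, 3 without those numbered 3 and 3 without lymph node Treg libraries 2, 3 and 4.

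Among 26 helper cytokines and cytokine receptors, 5 were called higher and 2 lower (median log2 fold change 0.24). Il2ra and Il2rb, among the 5, and Il7r and Tgfbr2, the 2 lower, also stand in other lists counted here. Il1r2, a decoy receptor for IL-1, had 31.997, 47.3, 19.4, 62.6 and 79.4 CPM in lymph node Tregs and 0, 0, 0, 0.391 and 0 CPM in effector T cells. Il1r2 had a log2 fold change of 9.44 (SE 1.03, adjusted p = 0.000103). Il18rap, a chain of the IL-18 receptor, held 603 counts in lymph node Tregs and 3 in effector T cells, a ratio of 296 after scaling (95% exact interval 101 to 1438, for counting error only, since amplified reads are not independent molecules). Il18rap overlapped between the groups, at 8.48, 0.273, 13.5, 43.9 and 15.2 CPM in lymph node Tregs and 0, 0, 0, 0.293 and 0 CPM in effector T cells. The call of Il18rap was lost without lymph node Treg library ds1 or effector T cell libraries 2, 4 or ds2 (adjusted p from 0.0531 to 0.105). Tgfbr2, the ligand-binding TGF-beta receptor, was lower, with 300.0, 234, 222, 213 and 127 CPM in lymph node Tregs and 590.0, 563, 576, 487 and 283 CPM in effector T cells. Tgfbr2 had a log2 fold change of -1.20 (SE 0.22, adjusted p = 0.00772), and lost its call without effector T cell library 4 (adjusted p = 0.0579). Il12rb2, the chain of the IL-12 receptor that type 1 helper cells carry, held 2 counts in lymph node Tregs and 298 in effector T cells, most of them in libraries 3 and ds2, and was not called (adjusted p = 0.0907). The counts of 5 and 2 became 3 and 1 without the ds2 libraries, 5 and 2 without those numbered 3, and 4 and 1 without lymph node Treg libraries 2, 3 and 4. The count of 5 was 3 without lymph node Treg library ds1, and the count of 2 was 1 without effector T cell library 4. Cd4 itself was lower, with 276, 314, 274, 429 and 167 CPM in lymph node Tregs and 567, 485, 750.5, 1324 and 341 CPM in effector T cells. Cd4 had a log2 fold change of -1.16 (SE 0.21, adjusted p = 0.00693). It overlapped between the groups while it was lower in all 5 replicate numbers.

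Of 33 proliferation genes, 15 were called higher in lymph node Tregs and 0 lower, 31 had a fold change above 0, and the median was 3.91. Mki67, the proliferation antigen Ki-67 (chromosome 7, 135689784 to 135716361, minus strand), had 118, 308, 159, 450.5 and 212 CPM in lymph node Tregs and 6.84, 29.8, 5.78, 4.78 and 6.88 CPM in effector T cells. Mki67 had a log2 fold change of 4.71 (SE 0.47, adjusted p = 4.7e-05). Top2a, the topoisomerase that untangles DNA for mitosis, had 124, 190.2, 225, 227 and 203 CPM in lymph node Tregs and 14.7, 23.2, 20.1, 1.17 and 11.1 CPM in effector T cells. Top2a had a log2 fold change of 3.91 (SE 0.54, adjusted p = 0.000772). Ccnb2, the mitotic cyclin B2, had 55.2, 89.6, 76.9, 86.4 and 105 CPM in lymph node Tregs and 0.0625, 2.03, 0.633, 0.586 and 0 CPM in effector T cells. Ccnb2 had a log2 fold change of 7.33 (SE 0.84, adjusted p = 0.000161). Ube2c, an enzyme of cyclin breakdown, had 51.97, 180.2, 60.8, 98.1 and 101 CPM in lymph node Tregs and 0, 0.244, 1.45, 2.05 and 0 CPM in effector T cells. Ube2c had a log2 fold change of 7.52 (SE 1.05, adjusted p = 0.000794). None of these 4 overlapped between the groups, and their calls held in all 15 leave-one-out fits. The replication helicase genes Mcm2 to Mcm7 (6 genes, picked after their values were seen) were not called, with log2 fold changes from -0.59 (Mcm2) to 1.82 (Mcm3), and Pcna stood at 0.79 (adjusted p = 0.295). The count of 15 was 10 to 17 with 1 library left out, 12 without the ds2 libraries, 9 without those numbered 3 and 8 without lymph node Treg libraries 2, 3 and 4. Tumour Tregs had Mki67 at 226, 308, 231, 214 and 337 CPM, and 0 of the 33 genes were called between tumour and lymph node Tregs.

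**Figure D3:**
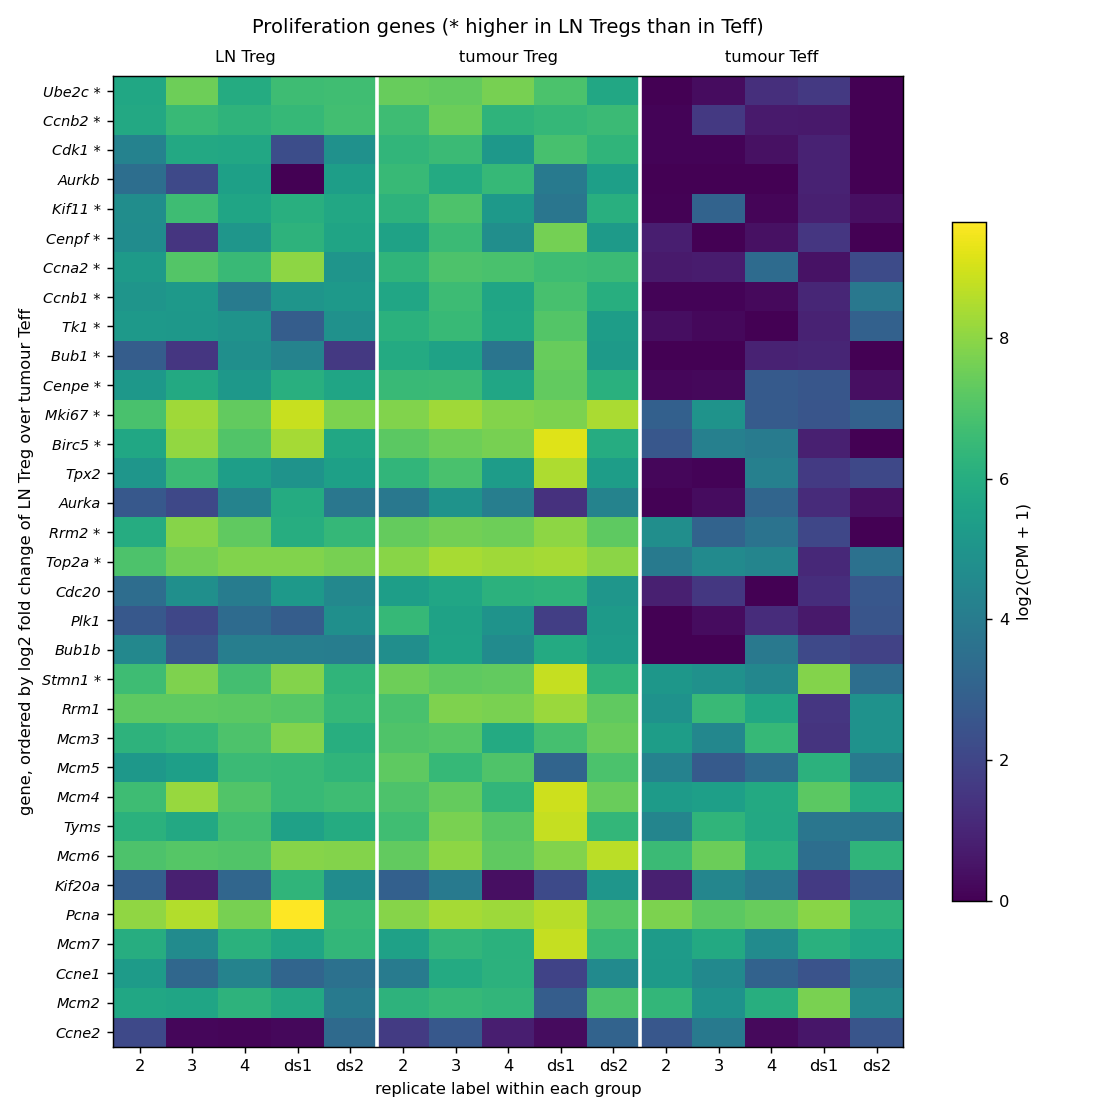
Levels of the 33 proliferation genes (rows, ordered by fold change) in the 15 libraries (columns, by group and replicate label), as log2(CPM + 1) on the colour scale. Rows with a star are the 15 called higher in lymph node Tregs than in effector T cells, and for most of them the 5 effector columns are the darkest.

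Promoters of genes for mitosis are known to carry CCAAT boxes and an element called CHR, which the factor NF-Y and the MuvB complexes bind. As members that moved together, 4 of the 15 called genes are shown with the 120 bases before their start, 5′ to 3′ on the gene's strand (RefSeq, GRCm38.p6), with CCAAT or its complement ATTGG and the CHR letters TTTGAA or their complement TTCAAA in capitals. Ube2c lies at chr2:164769809-164769928, plus strand, Cdk1 (the mitotic kinase) at chr10:69352913-69353032, minus strand, Ccnb2 at chr9:70421555-70421674, minus strand and Kif11 (a spindle motor) at chr19:37376262-37376381, plus strand.
Ube2c: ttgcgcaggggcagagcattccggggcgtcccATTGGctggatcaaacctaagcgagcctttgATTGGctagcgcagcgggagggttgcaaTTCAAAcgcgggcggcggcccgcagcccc
Cdk1: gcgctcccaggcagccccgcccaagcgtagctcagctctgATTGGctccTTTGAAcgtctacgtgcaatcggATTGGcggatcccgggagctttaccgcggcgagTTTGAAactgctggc
Ccnb2: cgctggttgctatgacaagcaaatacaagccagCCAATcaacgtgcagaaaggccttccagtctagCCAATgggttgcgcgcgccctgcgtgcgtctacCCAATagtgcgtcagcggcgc
Kif11: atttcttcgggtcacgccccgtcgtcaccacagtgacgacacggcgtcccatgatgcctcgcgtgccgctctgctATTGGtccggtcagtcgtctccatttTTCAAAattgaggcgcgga
Ube2c holds 2 CCAAT boxes and 1 CHR match, Cdk1 2 and 2, Ccnb2 3 and 0, and Kif11 1 and 1. The promoter table matched 26 of the 33 genes with 27 promoters, of which 21 (77.8%) held a CCAAT box on either strand and 7 (25.9%) a CHR match. Over all 32851 promoters of that set, 21.3% held a CCAAT box and 7.1% a CHR match in the same window. Of the 13 promoters of called genes 10 (76.9%) held a CCAAT box, 5 a CHR match and 4 (30.8%) both. Both were held by 5 (18.5%) of the 27 promoters of the whole list and by 1.5% of all promoters. The genes shown were not chosen by a rule, and Ube2c, Cdk1 and Kif11 hold both, so they do not stand for the called genes. A match is a description of letters and not a site that was shown to be used.

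By size of change, the genes called highest in lymph node Tregs with at least 10 CPM there were Il1r2, Mpeg1, Klrg1, Il18rap, Cybb, 4930431P03Rik, Hmmr, Pdzk1ip1, Ccl4, Hmgn3, Mxd3 and Ube2c. Klrg1, an inhibitory lectin receptor of terminally differentiated Tregs and T cells, had 21.04, 69.6, 37.2, 50.7 and 35.5 CPM in lymph node Tregs and 0.0625, 0, 0, 0.781 and 0 CPM in effector T cells. Klrg1 had a log2 fold change of 8.55 (SE 0.99, adjusted p = 0.000161). Mpeg1, which encodes the pore-forming protein perforin-2 known from macrophages, had 19.1, 14.8, 41.9, 126 and 5.89 CPM in lymph node Tregs and 0.125, 0, 0.0904, 0.195 and 0 CPM in effector T cells. Mpeg1 had a log2 fold change of 8.69 (SE 1.03, adjusted p = 0.000204). Cybb, a subunit of the phagocyte NADPH oxidase, had 23.8, 86.9, 50.2, 102 and 7.75 CPM in lymph node Tregs and 0, 0, 0.452, 0.781 and 0 CPM in effector T cells. Cybb had a log2 fold change of 7.94 (SE 1.16, adjusted p = 0.00125). Both Mpeg1 and Cybb are also expressed by B cells and myeloid cells. The summed macrophage and monocyte markers stood at 36.6, 84.1, 132, 118 and 4.34 CPM in lymph node Tregs and 13.8, 33.1, 27.9, 9.86 and 6.58 CPM in effector T cells, and the part of such cells in these values was not tested. Hmmr, a mitotic spindle protein, had 10.1, 3.62, 41.4, 21.3 and 22.3 CPM in lymph node Tregs and 0, 0, 0, 0.879 and 0 CPM in effector T cells. Hmmr had a log2 fold change of 7.88 (SE 1.34, adjusted p = 0.00360). Mxd3, a MYC network factor of dividing cells, had 17.1, 109, 9.59, 11.7 and 15.04 CPM in lymph node Tregs and 0, 0.0813, 0.271, 0.195 and 0 CPM in effector T cells, with library 3 of the lymph node group above its other 4. Mxd3 had a log2 fold change of 7.58 (SE 1.40, adjusted p = 0.00746). The call of Pdzk1ip1 (3.49 to 54.7 CPM in lymph node Tregs and 0 to 0.879 CPM in effector T cells) was lost without lymph node Treg libraries 2, ds1 or ds2 or effector T cell libraries 2, 3, 4 or ds2 (adjusted p from 0.0636 to 0.105), and those of the other genes named here, except Il18rap, held in all 15 leave-one-out fits.

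The genes called lowest in lymph node Tregs were Nme4, Nacc2, Hs3st3b1, Pdlim4, Als2cl, Sgk1, Fam78a, Slc12a7, Actn1, Fam101b, Il7r and Tcf7. Pdlim4, an actin-binding adaptor, had 0.859, 6.97, 3.73, 0.152 and 3.72 CPM in lymph node Tregs and 124, 106, 52.95, 99.7 and 121 CPM in effector T cells. Pdlim4 had a log2 fold change of -5.32 (SE 1.16, adjusted p = 0.0239). Actn1, the actin cross-linker alpha-actinin-1, had 623, 83.4, 279.5, 106 and 66.98 CPM in lymph node Tregs and 1905, 917, 1038, 1164 and 169 CPM in effector T cells. Actn1 had a log2 fold change of -2.32 (SE 0.35, adjusted p = 0.00136). Actn1 was lower in all 5 replicate numbers but overlapped between groups, since effector T cell library ds2 lay below lymph node Treg libraries 2 and 4. Both ds2 libraries were the lowest of their group. Sgk1, a kinase of salt and cytokine responses, had 71.4, 6.08, 24.02, 18.3 and 26.98 CPM in lymph node Tregs and 253, 205, 102, 364 and 78.3 CPM in effector T cells. Sgk1 had a log2 fold change of -2.81 (SE 0.58, adjusted p = 0.0159). Als2cl, a guanine nucleotide exchange factor family member, averaged 41.6 ± 41.7 CPM in lymph node Tregs and 352 ± 178 CPM in effector T cells. Als2cl had a log2 fold change of -3.63 (SE 0.57, adjusted p = 0.00217). Hs3st3b1, a heparan sulfate sulfotransferase, averaged 1.77 ± 2.98 CPM in lymph node Tregs and 63.99 ± 40.4 CPM in effector T cells. Hs3st3b1 had a log2 fold change of -5.88 (SE 1.24, adjusted p = 0.0187), and lost its call without lymph node Treg libraries 3, 4 or ds2 or effector T cell libraries 4 or ds2 (adjusted p from 0.0525 to 0.0953). Pdlim4 lost its call without lymph node Treg libraries 2, 3 or ds2 or effector T cell libraries 2, 4 or ds2 (adjusted p from 0.0557 to 0.115). Nme4 (log2 fold change -6.98, SE 1.59, adjusted p = 0.0311) lost it without lymph node Treg libraries 3, 4, ds1 or ds2 or effector T cell libraries 3, ds1 or ds2 (adjusted p from 0.0711 to 0.130), and Nacc2 (log2 fold change -6.30, SE 1.37, adjusted p = 0.0240) lost it without lymph node Treg libraries 2, 4 or ds2 or effector T cell libraries 2 or ds2 (adjusted p from 0.0513 to 0.0859). Slc12a7, a potassium and chloride cotransporter, lost it without effector T cell library 2 (adjusted p = 0.0597). Als2cl, Sgk1, Fam78a, Actn1 and Fam101b kept theirs in all 15 fits, as did Il7r and Tcf7.

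Other gene groups held no or few calls between lymph node Tregs and effector T cells, where 1.28% were higher and 0.235% lower over all genes. A list with 1 or 2 calls lies above those shares because it is small. These counts therefore say little about the groups. Of 26 factors induced by T cell receptor signals (Nr4a, Egr and AP-1 genes among them), 0 were called (median log2 fold change 0.21), and of 32 receptor and proximal signalling genes 1 was higher (Icos) and 1 lower (Cd4). The lower count was 3 without lymph node Treg library ds1 or tumour Treg library ds1, and 0 without the ds2 libraries or without lymph node Treg libraries 2, 3 and 4. Oxidative phosphorylation (31 genes, median 0.18), sterol and fatty acid synthesis (23 genes, median 0.07), the interferon gamma response (26 genes, median 0.27), AKT, mTOR and FOXO genes (22 genes, median -0.48) and cytosolic ribosomal proteins (40 genes, median -0.19) had 0 members called. Glycolysis and hypoxia had 1 of 26 called higher, Hif1a, which switches on genes when oxygen is low, at 301, 252, 196, 192 and 244 CPM in lymph node Tregs and 151, 50.5, 95.8, 149 and 134 CPM in effector T cells. Hif1a had a log2 fold change of 1.11 (SE 0.25, adjusted p = 0.0284). That call was lost without lymph node Treg libraries 2, 3, 4 or ds2 or effector T cell libraries 3, 4 or ds2 (adjusted p from 0.0552 to 0.105) and with size factors in place of TMM. In the type I interferon response 1 of 31 was called higher, Ifi27l2a, an interferon-induced mitochondrial protein, at 697, 1299, 1670.0, 815 and 1144 CPM in lymph node Tregs and 419.7, 579, 567, 236 and 661 CPM in effector T cells. Ifi27l2a had a log2 fold change of 1.19 (SE 0.22, adjusted p = 0.00703). Among apoptosis and survival genes 2 of 24 were higher, the pro-apoptotic Pmaip1 (log2 fold change 5.39, SE 1.02, adjusted p = 0.00883) and the anti-apoptotic Bcl2a1d (log2 fold change 3.53, SE 0.72, adjusted p = 0.0153), the last of which was lost without effector T cell library 4 (adjusted p = 0.0695). Of 8 GIMAP GTPases, which support lymphocyte survival, Gimap6 was lower. Gimap6 had a log2 fold change of -0.91 (SE 0.18, adjusted p = 0.0100) and lost its call without lymph node Treg library ds2 or effector T cell library 2 (adjusted p from 0.0524 to 0.0552). Of 14 neuropilin, semaphorin and plexin genes Nrp1 was called, and of 17 TGF-beta and Smad genes Lrrc32 was higher and Tgfbr2 lower. A gene that was not called is not shown to be equal in the groups.

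**Figure D4:**
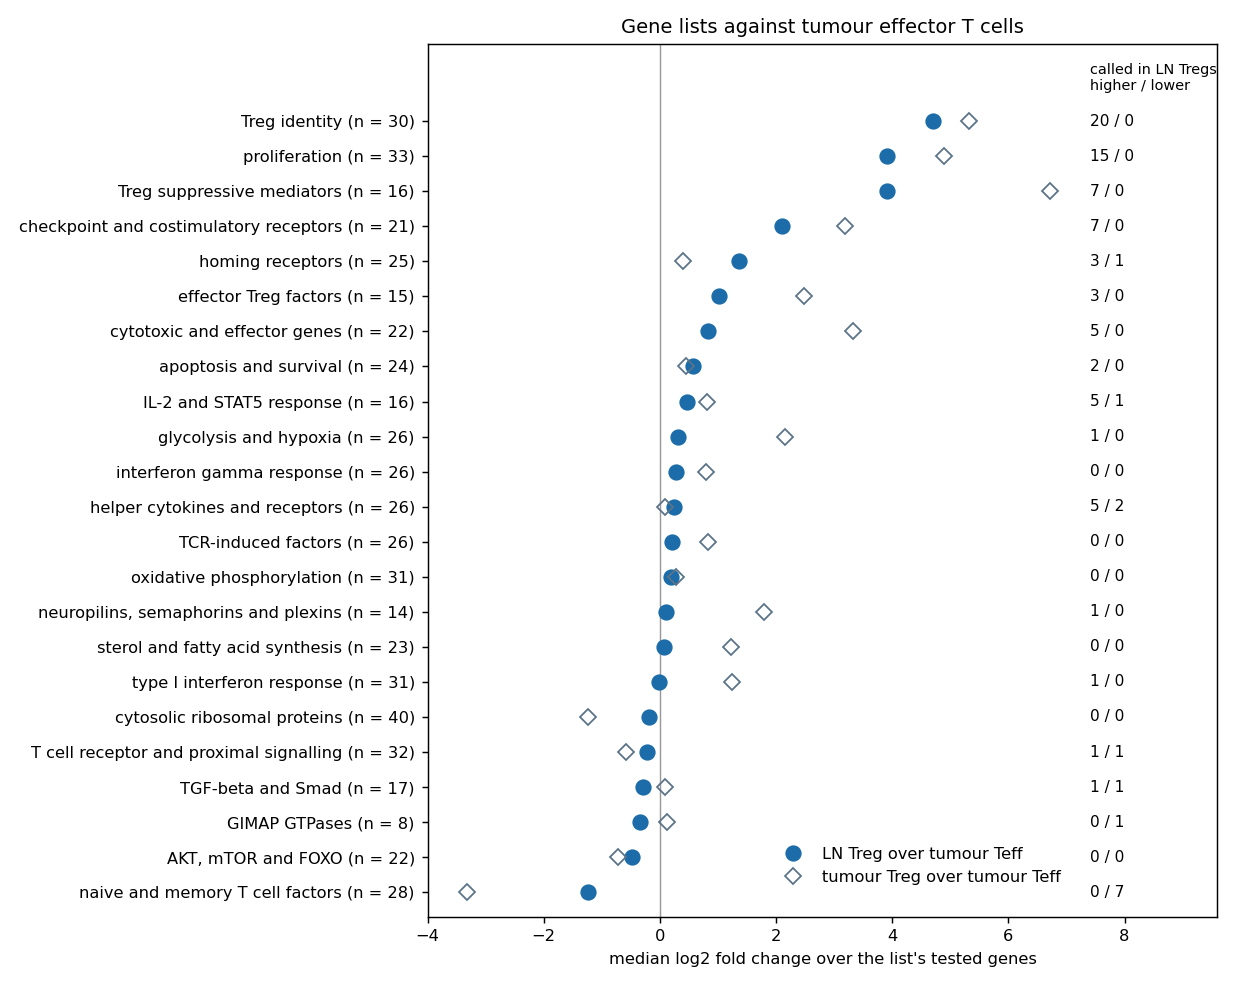
Median log2 fold change of 23 gene lists over effector T cells, for lymph node Tregs (filled circles) and tumour Tregs (open diamonds), with the number of tested genes after each name and the members called in lymph node Tregs at the right. Treg identity genes have medians of 4.71 in lymph node Tregs and 5.33 in tumour Tregs, and naive and memory factors have medians of -1.24 in lymph node Tregs and -3.32 in tumour Tregs. The sets share the same effector libraries.

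Tumour Tregs were set against the same effector libraries, so that the values share their denominator and are given side by side only. In tumour Tregs 549 genes were higher (4.77%) and 334 lower (2.9%) than in effector T cells, with a median of 0.05 over all genes. Of the 30 Treg identity genes 25 were called higher in tumour Tregs and 20 in lymph node Tregs. Of the 33 proliferation genes 22 were called higher in tumour Tregs and 15 in lymph node Tregs, and of the 16 suppressive mediators 12 in tumour Tregs and 7 in lymph node Tregs. Naive and memory factors were called lower in 19 of 28 in tumour Tregs and 7 of 28 in lymph node Tregs, and ribosomal protein genes in 36 of 40 in tumour Tregs and 0 of 40 in lymph node Tregs. Glycolysis and hypoxia genes were called higher in 12 of 26 in tumour Tregs and 1 of 26 in lymph node Tregs. Interferon gamma response genes were called higher in 10 of 26 in tumour Tregs and 0 of 26 in lymph node Tregs.

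The difference between the Treg groups has its own test, which shares the lymph node libraries, with 96 genes higher in tumour Tregs (0.835%) and 132 lower (1.15%). Of the lists, the Treg identity list had 2 higher and 2 lower in tumour Tregs, suppressive mediators 2 and 0, proliferation 0 and 0, naive and memory factors 0 and 13, glycolysis and hypoxia 8 and 0, and ribosomal proteins 0 and 31. Ikzf2 stood at -0.02 on the log2 scale in tumour over lymph node Tregs (adjusted p = 0.994), Il2ra at -0.55 (adjusted p = 0.605), and Mki67 at 0.19 (adjusted p = 0.910). Tnfrsf9, at 1643, 1140.5, 1374, 970.1 and 708 CPM in tumour Tregs, was higher there (3.26, adjusted p = 0.000508), as were Tnfrsf18 (1.79, adjusted p = 0.00149), Gzmb (6.67, adjusted p = 0.000646) and Ccl5 (3.63, adjusted p = 0.000104). Ccr7 (-3.04, adjusted p = 9.7e-05) was lower in tumour Tregs. Il7r, at 254, 292, 232, 143 and 244 CPM in tumour Tregs, stood at -0.37 on the log2 scale against lymph node Tregs (adjusted p = 0.616).

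A second set of lymph node Tregs, the 5 libraries titled NN (called N Tregs here, genotype label Het_Nrp1-), gave levels on a scale set with the same effector T cells. Il2ra stood at 464 to 749.7 CPM (median 624) in these Tregs and 1.36 to 17.4 CPM (median 3.36) in effector T cells. Ikzf2 stood at 981 to 1170.2 CPM (median 1001) in N Tregs and 1.29 to 24.5 CPM (median 14.7) in effector T cells. Tcf7 stood at 158 to 325 CPM (median 273) in N Tregs and 502 to 1252 CPM (median 923) in effector T cells, and Il7r at 202 to 296 CPM (median 251) in N Tregs and 881 to 1240.1 CPM (median 1105) in effector T cells. In each of these 4 genes, which are a part of the 24 set genes, N Tregs and effector T cells did not overlap. Nrp1 and Ctla4 did not overlap either, while Ccr7, Lef1 and Cd4 did. The effector libraries are those of the main comparison, so the separation is not independent of it. Overlap with N Tregs was not counted over all genes. Ccr7 stood at 232 to 520 CPM in N Tregs and 461 to 725 CPM in effector T cells. The other lymph node sets gave wider ranges for Il7r. In the libraries titled HNY (label Het_Nrp1-) it stood at 146 to 1224 CPM (median 519.8), overlapping with effector T cells, and in those titled HNG (label Het_WT) at 22.3 to 346 CPM (median 314), with no overlap. For Il2ra, Ikzf2 and Tcf7 neither HNY nor HNG overlapped with effector T cells. Foxp3 again ran widely, at 0.0976 to 69.7 CPM (median 6.797) in N Tregs and 0 to 1.07 CPM (median 0.0857) in effector T cells.

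Markers of other cell types were present in part of the libraries. B cell markers (9 genes, 0 of 6 tested called) summed to 2141, 338, 718, 272 and 253 CPM in lymph node Tregs and 176, 228, 126, 5.47 and 7.18 CPM in effector T cells. Most of each lymph node sum was Cd74, at 1488, 212, 461, 269 and 237 CPM, and the sums of ds1 and ds2 rest almost wholly on this gene. Cd79b, a chain of the B cell receptor, had 319.8, 66.01, 99.7, 1.07 and 15.3 CPM in lymph node Tregs and 13.999, 4.47, 26.7, 0.586 and 0 CPM in effector T cells. B cell transcripts were thus highest in the singly sorted lymph node libraries 2 and 4, Pax5 was at 0 in 4 of the 5 lymph node libraries, and the doubly sorted ones held at most 15.3 CPM of Cd79b. Without lymph node Treg libraries 2, 3 and 4, 57 genes were called higher and 3 lower, where Il2ra, Ikzf2 and Nrp1 were still among the called. Melanoma genes (8 genes, 0 of 5 tested called) summed to 3.87, 11.3, 30.2, 12.5 and 27.6 CPM in lymph node Tregs, 1280.1, 1583, 3719, 16.3 and 6.77 CPM in tumour Tregs and 13.97, 17.1, 3.34, 91.1 and 62.2 CPM in effector T cells. Pmel made up most of the sum in 4 of the 5 effector libraries, and Mlana was at 0 or near it in them (0 to 0.391 CPM). Exons of Pmel overlap those of Cdk2 and Dgka on the opposite strand. How shared reads were counted is not known, so the values of Pmel are uncertain. CD8 T cell (2 genes), NK cell, dendritic cell, plasma cell, gamma delta T cell, endothelial and mast cell markers had 0 members called. No gene of the neutrophil, fibroblast and erythroid lists passed the filter on low counts. Levels were still uneven. CD8 sums were 204, 38.4, 73.4, 114 and 34.7 CPM in lymph node Tregs and 2.54 to 75.1 CPM in effector T cells. NK cell sums were 13.1, 33.2, 84.1, 1.07 and 0.6202 CPM in lymph node Tregs and 0.488 to 2.99 CPM in effector T cells. Dendritic cell sums reached 86.8 CPM in lymph node Treg library 4 and 8.202 CPM in effector T cell library ds1. Igj, an untested plasma cell marker, had 213 CPM in lymph node Treg library 4 and at most 0.391 CPM in effector T cells. Endothelial sums leaned the other way, at 34.6 to 192 CPM in lymph node Tregs and 81.3 to 208 CPM in effector T cells. The part of all these cell types in the other values was not tested.

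**Figure D5:**
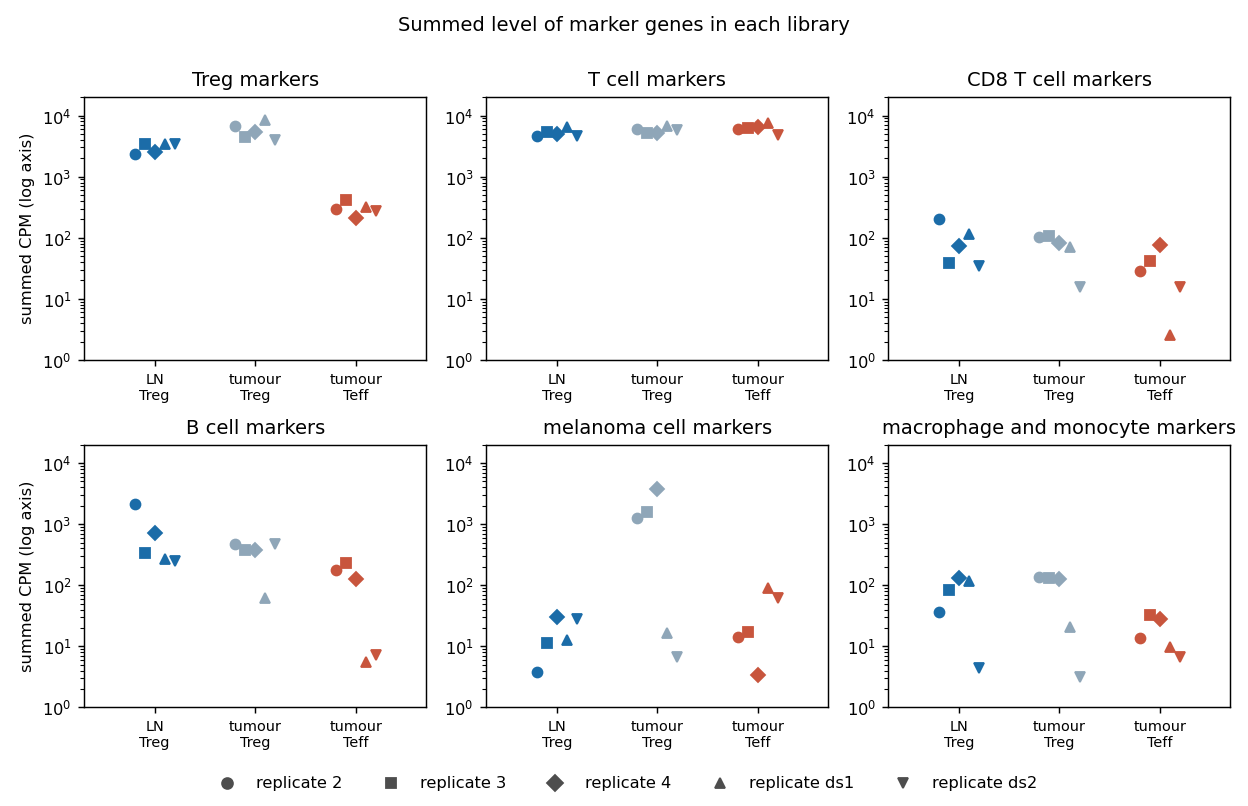
Summed CPM of marker genes in each library, on a log axis, for lymph node Tregs, tumour Tregs and effector T cells, with the replicate as the shape. Treg markers separate both Treg groups from effector T cells, T cell markers are level, B cell markers are highest in lymph node Treg library 2, and melanoma markers are high in tumour Treg libraries 2, 3 and 4.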

How the data were processed

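The deposited count table holds raw reads for 23420 gene symbols. The submitters' processing notes name STAR, featureCounts and the build mm10. Versions, annotation, strand setting and treatment of shared reads were not given in the sources used. The deposited normalized log values, taken as log2 since no base is stated, with limma named in the same notes, served as an alternative only, since every gene has an equal mean in all replicate numbers there (means at most 3.78e-13 apart). Genes that overlap another gene's exons (32 of 114 named, among them Foxp3, Ikzf2, Maf, Ube2c with Tnnc2, Mxd3 with Prelid1, Pmel with Cdk2 and Dgka) or have close paralogs (Gzmb, Ccl4, Bcl2a1d, Gimap6) are uncertain.

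Counts of 15 libraries (lymph node Tregs, tumour Tregs, effector T cells) were normalized by TMM and filtered with filterByExpr (11498 genes kept), and edgeR 4.0.16 in R 4.3.3 fitted robust quasi-likelihood models with group and replicate number (8 residual df). The script was tested on simulated data. Libraries of a group were no duplicates (chi-square per df at least 77.4). Alternatives used DESeq2 1.42.0, limma 3.58.1, other scalings and filters, and left-out libraries. Genes named were 24 set genes, the 12 largest called changes in each direction with at least 10 CPM and 1 sign in all 5 numbers, at most 4 called members a list and direction (2 of a list without calls) and 2 markers of each other cell type. Other genes named were chosen after their values were seen. Members, lists and rules were chosen with earlier results of these data known. Positions are GENCODE vM21 (mm10), which matched 92.98% of symbols. Some genes covered by the rule are not reported here.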

Additional observations from a re-analysis of the deposited data

Results flagged for a closer look

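In 14 of 156 groups of 5 libraries examined (named genes averaging at least 10 CPM, and library totals), the highest or lowest library stood apart from the other 4 by more than 0.71 of the range of log2(CPM + 1), Dixon's 95% limit. Chance flags about 1 in 20 groups. In lymph node Tregs, library 3 was high for Mxd3 (109 CPM, others 9.59 to 17.1) and Bhlhe40 (82.3 CPM, others 14.7 to 19.1) and low for Gpr83 (15.7 CPM, others 76.8 to 110.5). Library 2 was low for Ccr6 (4.94 CPM, others 51.1 to 66.7) and high for Gimap6 (1478 CPM, others 463.6 to 648), and library ds1 was high for Sc5d (84.1 CPM, others 53.3 to 57.8).

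In effector T cells, library 4 was low for Nacc2 (14.5 CPM, others 29.3 to 36.8) and Pdlim4 (53.0 CPM, others 99.7 to 124). Library ds1 was low for Icos (15.7 CPM, others 111 to 153), Tnfrsf4 (0.293 CPM, others 29.0 to 49.2) and Top2a (1.17 CPM, others 11.1 to 23.2) and high for Irf8 (129.7 CPM, others 1.81 to 5.78). Library ds2 was low for Tgfbr2 (283 CPM, others 487 to 590.0) and library 3 high for Mki67 (29.8 CPM, others 4.78 to 6.88). The libraries that stood apart did so on both sides, and their causes were not tested.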

How the results depend on the processing

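The 147 genes called higher and 27 lower in lymph node Tregs against effector T cells became 58 and 21 with the 10 compared libraries alone, 253 and 43 with N Tregs of lymph nodes and of tumours (titled NT) added to the fit (25 libraries), 28 and 0 with doubly sorted libraries alone, 561 and 164 with DESeq2, 679 and 310 with limma-voom, 39 and 4 with the authors' log2 values, and 284 and 57 without the filter. Alternatives chosen after seeing the data gave 76 and 8 without the ds2 libraries, 57 and 3 without lymph node Treg libraries 2, 3 and 4, and 87 and 16 without those numbered 3. Leave-one-out counts ran from 92 to 169 and from 13 to 45. Without the replicate block 165 were higher and 20 lower, of which 120 and 14 were shared with the paired fit; same-numbered libraries deviated together with r above 0.1 in 3 of 5 pairs (0.0161 to 0.420), so the pairing criterion of r above 0.1 in every pair was not met, and 3 of 5 lymph node libraries were most like their own number. Y-linked reads in the libraries numbered 3 of all 3 groups, and the highest Malat1 share in ds2 of each, do tie those numbers across groups.

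Tumour Tregs against effector T cells (549 and 334) gave 79 and 52 with doubly sorted libraries, 1356 and 683 with DESeq2, 1638 and 1298 with limma-voom, 0 and 0 with the authors' log2 values, 340 and 181 without ds2 and 334 higher without those numbered 3, and 376 to 672 higher and 218 to 439 lower leaving 1 out. Tumour against lymph node Tregs (96 and 132) gave 57 and 50 without the replicate block, 179 higher with N Tregs of both tissues added, 60 and 58 with sorting as covariate, 13 and 16 with doubly sorted libraries, 479 and 306 with DESeq2, 758 and 601 with limma-voom, 0 and 0 with the log2 values, 237 higher without the filter, 45 and 55 without ds2, 14 and 42 without lymph node Treg libraries 2, 3 and 4, 42 and 74 without those numbered 3, and 47 to 149 and 78 to 170 leaving 1 out. The causes were not tested.

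None of the 64 named genes called changed sign in an alternative that tested it. Some named genes without a call did, such as Ifng in 6 of 29 alternatives and Havcr2 in 10 of 28. Medians of some lists near 0 also changed sign with 1 library left out, such as helper cytokines and receptors (-0.13 to 0.33). Of 64 named genes called, 44 held in all 15 leave-one-out fits, 56 without the replicate block, 63 with DESeq2, 64 with limma-voom, 19 with the log2 values and 11 with doubly sorted libraries. Depth limits genes near 0, since the shallowest library held 2945638 counts.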

Other observations

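Outside the lists, 6 further genes called higher in lymph node Tregs were named after their values were seen, with no test of them as a group. S100a4, a calcium-binding protein, averaged 404 ± 515 CPM in lymph node Tregs and 30.2 ± 33.8 CPM in effector T cells (log2 fold change 3.65, SE 0.68, adjusted p = 0.00790), and S100a6 averaged 262 ± 178 CPM in lymph node Tregs and 6.23 ± 7.47 CPM in effector T cells (log2 fold change 5.73, SE 0.97, adjusted p = 0.00360). Ahnak, a large scaffold protein, averaged 273 ± 114 CPM in lymph node Tregs and 17.7 ± 22.7 CPM in effector T cells (log2 fold change 4.44, SE 0.59, adjusted p = 0.000547), and Anxa2, a membrane-binding annexin, 114 ± 38.2 CPM in lymph node Tregs and 10.6 ± 10.5 CPM in effector T cells (log2 fold change 3.94, SE 0.72, adjusted p = 0.00703). Vim, the intermediate filament vimentin, averaged 1149 ± 531 CPM in lymph node Tregs and 531 ± 199 CPM in effector T cells (log2 fold change 1.11, SE 0.21, adjusted p = 0.00907). Lgals3, the lectin galectin-3, averaged 78.7 ± 49.96 CPM in lymph node Tregs and 5.57 ± 4.53 CPM in effector T cells (log2 fold change 4.13, SE 0.81, adjusted p = 0.0114). S100a6, Ahnak, Anxa2 and Lgals3 did not overlap between the groups, while S100a4 and Vim did.

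Further genes called higher, also named after their values were seen, were the transcription cofactor Hopx (164 ± 29.6 CPM in lymph node Tregs and 11.4 ± 9.16 CPM in effector T cells, log2 fold change 3.99, SE 0.56, adjusted p = 0.000907), the inflammatory protease Casp1 (87.7 ± 42.03 CPM in lymph node Tregs and 6.53 ± 6.65 CPM in effector T cells, log2 fold change 4.38, SE 0.90, adjusted p = 0.0161) and the granule proteoglycan Srgn (611 ± 104 CPM in lymph node Tregs and 269 ± 54.8 CPM in effector T cells, log2 fold change 1.17, SE 0.21, adjusted p = 0.00642). Penk, a member of the Treg identity list that encodes the precursor of the opioid peptide enkephalin, averaged 51.2 ± 47.6 CPM in lymph node Tregs, 103 ± 42.6 CPM in tumour Tregs and 0.333 ± 0.376 CPM in effector T cells (log2 fold change 6.82, SE 1.14, adjusted p = 0.00330 for lymph node Tregs over effector T cells).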
